A study of Mus musculus with 6 samples.

Results

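Open chromatin was measured around 38 genes of the cell cycle and DNA replication in primary mouse lung fibroblasts grown on surfaces of different stiffness. The genes were the D, E, A and B cyclins, their kinases and inhibitors, the retinoblastoma and E2F genes, the replication machinery and a set of mitotic genes, taken by name. A region belonged to the set when its nearest annotated start site was that of 1 of these genes and lay within 100000 bases. Such regions numbered 106 of 64217 in the table comparing plastic with 32 kPa, 42 of them promoters and 64 distal, and all 38 genes had at least 1. Distal here means any region not annotated as a promoter. Some distal regions therefore lie close to a start site, such as a Pcna region 438 bases downstream. The tables against 0.2 kPa held 4 of 2121 listed regions from the set for 32 kPa and 3 of 2114 for plastic.

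Accessibility was read by Omni-ATAC-seq, where a transposase inserts sequencing adapters into open DNA. Fibroblasts positive for GFP were sorted from lungs of Col1a1-GFP transgenic mice, whose reporter marks cells that use the collagen I gene, so the cells were selected for that property in every culture. They grew for 8 days on tissue-culture plastic, on 32 kPa silicone (PDMS) or on 0.2 kPa PDMS, all coated with collagen I and fed medium with 10% serum. Each culture had 2 libraries of 50000 cells, and the age of the mice and whether the libraries came from separate animals are not given in the sources used here, so the authors' p-values measure a spread between libraries that may be technical. The deposited values are 1 mean per culture and region, read here as log2 normalised reads, so the spread between libraries and the depth per library are unknown. No sort by cell cycle phase is given. A region open in more cells and a region more open in each cell therefore cannot be told apart.

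The label of the cells was checked at promoters on plastic and 32 kPa. Of 9 fibroblast markers, 8 had an accessible promoter, at levels of 2.97 to 8.93 on plastic and 3.76 to 8.82 on 32 kPa, and Lum had none. None of 6 epithelial and none of 3 mesothelial markers had an accessible promoter, while Kdr of 5 endothelial markers (3.02 on plastic, 3.08 on 32 kPa), Lyz2 of 4 leukocyte markers (4.29 and 5.01) and Myh11 of 3 smooth muscle and pericyte markers (5.45 and 5.25) had one. Their part in the results was not tested.

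A cell enters the cycle when D cyclins bind the kinases CDK4 and CDK6 and phosphorylate the retinoblastoma protein, which then releases E2F transcription factors. E2F raises cyclin E, the MCM helicase and PCNA for DNA replication, and the cyclin B kinase complex later drives mitosis. CDK inhibitors hold these kinases back. Lung fibroblasts divide little in healthy tissue, and their proliferation on stiff matrix is a known feature of the activated state.

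Promoters that carry the results and had a matched RefSeq window are shown first. Those of Pcna (chr2:132253131-132253430, minus strand), Ccne1 (chr7:38107441-38107740, minus strand) and Ccnd3 (chr17:47593217-47593516, plus strand) overlap regions listed as higher on 32 kPa than on 0.2 kPa. Those of E2f3 (chr13:29986014-29986313, minus strand), Cdc20 (chr4:118437294-118437593, minus strand) and Mcm3 (chr1:20820263-20820562, minus strand) have the 3 highest levels per region of the set's promoters and were not listed. The sequences are from RefSeq on GRCm38.p6, the assembly called mm10 in the files, and run from 250 bases before the start site to 50 after it. Capitals mark matches on either strand to letters of the E2F site (TTCCCGC or, in its other forms, TTGGCGC or also TTCGCGC or lastly TTGCCGC), of the CHR element of late cell cycle genes (TTTGAA) or of the CCAAT box (CCAAT).
Pcna: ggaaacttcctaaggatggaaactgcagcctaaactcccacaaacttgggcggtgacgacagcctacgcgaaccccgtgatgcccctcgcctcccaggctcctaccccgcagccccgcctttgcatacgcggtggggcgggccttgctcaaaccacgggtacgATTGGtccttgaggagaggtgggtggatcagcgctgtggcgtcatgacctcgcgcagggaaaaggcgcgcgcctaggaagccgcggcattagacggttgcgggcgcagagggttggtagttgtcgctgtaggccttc
Ccne1: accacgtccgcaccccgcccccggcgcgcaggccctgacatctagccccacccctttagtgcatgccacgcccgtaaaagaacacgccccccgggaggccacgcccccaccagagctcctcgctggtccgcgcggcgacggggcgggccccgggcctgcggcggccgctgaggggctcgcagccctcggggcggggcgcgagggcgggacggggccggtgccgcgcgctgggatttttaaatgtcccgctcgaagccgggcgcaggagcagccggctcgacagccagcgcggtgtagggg
Ccnd3: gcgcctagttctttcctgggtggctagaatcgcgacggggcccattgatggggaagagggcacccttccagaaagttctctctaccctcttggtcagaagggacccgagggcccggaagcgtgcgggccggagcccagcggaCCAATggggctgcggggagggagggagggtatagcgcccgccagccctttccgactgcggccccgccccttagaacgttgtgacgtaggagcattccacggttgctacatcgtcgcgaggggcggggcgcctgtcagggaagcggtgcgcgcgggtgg
E2f3: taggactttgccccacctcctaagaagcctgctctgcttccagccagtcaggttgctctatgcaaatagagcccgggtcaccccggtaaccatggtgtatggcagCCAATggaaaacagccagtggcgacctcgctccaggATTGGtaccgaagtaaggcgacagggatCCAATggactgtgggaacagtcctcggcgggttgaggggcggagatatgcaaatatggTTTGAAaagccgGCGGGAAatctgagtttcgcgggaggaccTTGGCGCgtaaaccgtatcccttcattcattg
Cdc20: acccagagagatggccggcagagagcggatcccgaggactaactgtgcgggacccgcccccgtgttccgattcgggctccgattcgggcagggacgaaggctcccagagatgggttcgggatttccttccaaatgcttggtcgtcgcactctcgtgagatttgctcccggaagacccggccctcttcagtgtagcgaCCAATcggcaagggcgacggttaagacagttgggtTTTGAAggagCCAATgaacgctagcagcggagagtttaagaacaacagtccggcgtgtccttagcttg
Mcm3: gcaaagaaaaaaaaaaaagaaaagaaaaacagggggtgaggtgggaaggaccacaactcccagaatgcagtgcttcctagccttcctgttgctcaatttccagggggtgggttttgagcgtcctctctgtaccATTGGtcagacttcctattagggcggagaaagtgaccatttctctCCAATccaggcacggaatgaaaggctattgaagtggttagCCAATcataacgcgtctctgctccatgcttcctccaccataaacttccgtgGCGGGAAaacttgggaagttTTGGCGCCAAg

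Of the 3 listed promoters shown, the share of G and C was 63.0% for Pcna, 76.0% for Ccne1 and 67.0% for Ccnd3. It was 55.3% for E2f3, 58.7% for Cdc20 and 48.7% for Mcm3. The Ccnd2 promoter, listed on plastic, had no matched window. No share over all promoter windows is given, so these values describe single windows and no trait of listed promoters. Pcna held a CCAAT match that began 87 bases before the start site and Ccnd3 held one 108 bases before it, while Ccne1 held no match to any of the searched letters. The E2f3 window had 2 E2F matches, 1 CHR match and 3 CCAAT matches. In Cdc20 a CHR match began 18 bases before the start site, between CCAAT matches at 53 and 8 bases before it. Mcm3 had E2F matches that began 20, 40 and 43 bases after the start site, of which the last pair share letters, and 3 CCAAT matches upstream. E2F and CCAAT letters can overlap each other, since a CCAAT box on the other strand ends in the letters TTGG.

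RefSeq windows were matched for 30 of the 38 genes, 37 windows in all. E2F letters were in 15 of these windows (40.5%) and in 9.57% of all 32851 promoter windows of the mouse. CHR letters were in 11 (29.7%, against 17.9% of all windows) and CCAAT letters in 24 (64.9%, against 37.4%). These matches describe the letters of the windows and identify no bound factor.

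On 32 kPa the promoters of Pcna, Ccne1 and Ccnd3 and an intron of Rb1 were more accessible than on 0.2 kPa. Pcna encodes the sliding clamp that holds DNA polymerase on its template, Ccne1 encodes cyclin E1, which activates CDK2 at the start of S phase, Ccnd3 is a D cyclin, and Rb1 encodes the retinoblastoma protein. All 4 regions were about 2.07 to 2.36 times higher on 32 kPa. The 4 regions came from the 44 of the set that reached 4.97, the lowest listed level on 32 kPa, which is 9.09%. Of all regions at or above that level, 12.5% were listed, so the share in the set was near the background. Among promoters it was 3 of 31 (9.68%), beside 13.0% of all promoters, and among distal regions 1 of 13 (7.69%), beside 12.0%.

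The Pcna promoter (chr2:132253103-132253472, its centre 107 bases upstream of the start site) had a level of 6.91 on 32 kPa, against 5.70 on 0.2 kPa. The log2 fold, 32 kPa minus 0.2 kPa, was 1.21 with an FDR (adjusted p) of 0.00272 in the authors' deposited table. At the Ccne1 promoter (chr7:38107423-38107855, 149 bases upstream) the level was 7.08 on 32 kPa, against 5.93 on 0.2 kPa. Its fold in the authors' deposited table was 1.15, at an FDR of 0.00281. These were the best supported regions of the set, at ranks 179 and 191 of 2121 by p-value.

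The Rb1 region (chr14:73293536-73294075) lies in intron 4 of 26, 32.0 kb into the gene, within an RMER6C element, an LTR of the ERVK class. Its level was 6.05 on 32 kPa, against 4.81 on 0.2 kPa, and the authors' deposited table gave a fold of 1.24 with an FDR of 0.00841. The promoter of Rb1 itself, at 5.49 on 32 kPa, was not listed. The Ccnd3 promoter (chr17:47593293-47593546) is that of the downstream start site of the gene, with its centre 48 bases before it. It had 6.18 on 32 kPa, against 5.13 on 0.2 kPa, and the authors' deposited table has it at a fold of 1.05 (FDR = 0.0244).

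On plastic the promoter of Ccnd2, another D cyclin gene, was more accessible than on 0.2 kPa, as were the same Rb1 intron and an intron of Cdk6, the gene of a kinase that D cyclins activate. The Ccnd2 promoter (chr6:127150957-127151140) had 5.94 on plastic, against 4.72 on 0.2 kPa. The authors' deposited table gave it a fold of 1.23 and an FDR of 0.00831. At the Rb1 intron (chr14:73293545-73293954) the level was 5.83 on plastic, against 4.65 on 0.2 kPa, and the authors' deposited table has it at a fold of 1.18 (FDR = 0.0125). The Cdk6 region (chr5:3380834-3381154, intron 2 of 7, 37.1 kb into the gene) had 5.11 on plastic, against 3.97 on 0.2 kPa. Its fold of 1.14 carried an FDR of 0.0488 in the authors' deposited table, close to the limit of 0.05.

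Those 3 regions came from 48 of the set at or above the lowest listed level of 4.94 on plastic, which is 6.25%, beside 11.7% of all such regions. For promoters the count was 1 of 32 (3.12%, beside 10.8%) and for distal regions 2 of 16 (12.5%, beside 11.5%). With a window of 10000 bases in place of 100000, or an FDR of at most 0.01, the count on plastic was 1, the Ccnd2 promoter.

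**Figure D1:**
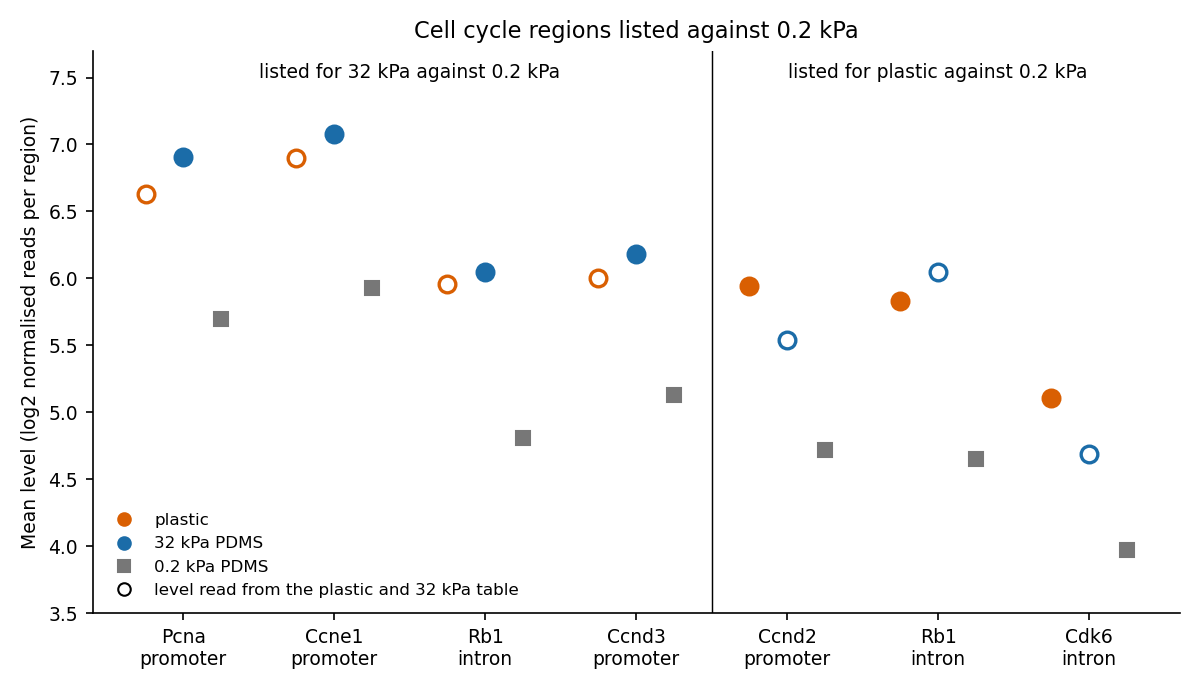
The authors' mean level (log2 normalised reads per region) of each listed region of the set on plastic, 32 kPa and 0.2 kPa, with open circles for levels read from the table of plastic and 32 kPa. An open circle can be of a longer interval than the listed region. In every column both stiffer cultures lie above 0.2 kPa, which for the filled symbols is fixed by the listing, and the Cdk6 intron is the lowest.

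The Rb1 intron was in both lists, which share the 0.2 kPa libraries. The other regions were also higher on the culture for which they were not listed, short of the log2 fold of 1 that is the smallest in either list. Plastic exceeded 0.2 kPa by 0.93 at the Pcna promoter (6.63 on plastic), by 0.97 at Ccne1 (6.90) and by 0.87 at Ccnd3 (6.0). On 32 kPa the level exceeded that on 0.2 kPa by 0.82 at the Ccnd2 promoter (5.54 on 32 kPa) and by 0.72 at the Cdk6 intron (4.69). The last of these levels is below 4.97, the lowest of any region listed for 32 kPa. Each of these differences rests on the same 0.2 kPa level that entered the listing, and none was tested. Except at the Cdk6 intron, the level on the absent culture is of a longer interval than the listed one, so unlike intervals are compared. Where a region occurred at the same interval in both lists, which was so at 7 intervals of all genes, its 0.2 kPa levels in the lists differed by 0.01.

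Plastic and 32 kPa were compared with each other directly at these regions. The difference, plastic minus 32 kPa, was -0.29 at the Pcna promoter (p = 0.275), -0.19 at Ccne1 (p = 0.444) and -0.20 at Ccnd3 (p = 0.51) in the authors' deposited table. It was 0.40 at the Ccnd2 promoter (p = 0.285), 0.41 at the Cdk6 intron (p = 0.36) and -0.09 at the Rb1 intron (p = 0.763) in the authors' deposited table. None of these p-values, given before adjustment, passed 0.05. Listing for 1 stiffer culture and not for the other is therefore not shown to be a difference between them.

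Of the 38 genes, 6 were listed in at least 1 comparison. They were Ccnd2 and Ccnd3 of the 3 D cyclins, Ccne1 of the 5 E, A and B cyclins, Cdk6 of the 4 kinases, Rb1 of the 5 retinoblastoma and E2F genes, and Pcna of the 8 licensing and replication genes. These 6 act in G1 or in replication, as do most genes of the set. Mitotic genes of a wider group, given below, were listed as well. No share of listed genes was counted over all genes. None of the 6 CDK inhibitor genes was listed, although all 6 had a region high enough in both comparisons. The 11 genes of mitosis and its cyclins and kinase (Ccna2, Ccnb1, Ccnb2, Cdk1, Mki67, Top2a, Aurka, Aurkb, Bub1, Plk1 and Cdc20) had no listed region within 100000 bases either. They had 8 high enough regions there on 32 kPa and 10 on plastic. An Mki67 region beyond that limit, 144.65 kb upstream, was listed for plastic (fold 1.31, FDR = 0.0257 in the authors' deposited table). At a background of 12.5% and 11.7%, 8 and 10 regions are small numbers, and whether the groups of genes differ was not tested.

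A missing region is no evidence of an unchanged gene. The lists hold no fold below 1 and no region higher on 0.2 kPa, so smaller or opposite differences are not analysed here. In addition, Rbl1, E2f2 and Bub1 had no region that reached the lowest listed level on either stiffer culture, and Aurkb, Ccnb2 and Cdk6 had none on 32 kPa. The highest level on 32 kPa was 4.26 for Rbl1, a relative of Rb1, and 4.33 for Bub1, a kinase of the spindle checkpoint. E2f2 came closest, at 4.95.

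Further cell cycle genes outside the set were counted in the same way. They were 95 genes of replication, mitosis and their control, named from general knowledge with earlier results of these data known, so their share may reflect that choice. Of the 95 genes, 86 had a region within 100000 bases. On 32 kPa, 18 of 84 high enough regions were listed (21.4%, beside the 12.5% of all regions), each of a different gene, and on plastic 13 of 88 were (14.8%, beside 11.7%). Among promoters alone, 13 of 61 were listed for 32 kPa (21.3%, beside 13.0% of all promoters) and 8 of 61 for plastic (13.1%, beside 10.8%). No test was made of these shares or of their difference from the set, and regions are not independent replicates.

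Several of the listed genes of this wider group act at the replication fork and its origins. The promoter of Gins4, which encodes a subunit of the GINS complex of the replicative helicase, had 7.17 on 32 kPa, against 5.94 on 0.2 kPa (fold 1.24, FDR = 0.000818 in the authors' deposited table). It had 7.20 on plastic, against 5.95 on 0.2 kPa (fold 1.25, FDR = 6.77e-05 in the authors' deposited table). Gins3, of the same complex, was listed at its promoter in both comparisons, with folds of 1.10 on 32 kPa and 1.07 on plastic in the authors' deposited table. Rfc4, a subunit of the clamp loader that places PCNA on DNA, was listed in both as well, at 1.11 on 32 kPa and 1.09 on plastic in the authors' deposited table.

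On 32 kPa the listed promoters of the wider group included Rfc5 (fold 1.06), Pold1 (1.02), which encodes the catalytic subunit of DNA polymerase delta, Rpa2 (1.14), Mcm10 (1.07) and the ribonucleotide reductase gene Rrm1 (1.09) in the authors' deposited table. Mitotic genes were listed too. The promoter of Cenpf, a kinetochore gene, had 7.61 on 32 kPa, against 6.59 on 0.2 kPa (fold 1.03 at FDR = 0.00154 per the authors' deposited table). Those of Ect2 and of the mitotic kinesin gene Kif11 had folds of 1.0 and 1.14 in the authors' deposited table. Of regulators, E2f4, a repressive E2F, was listed on 32 kPa (fold 1.23, FDR = 0.0154 in the authors' deposited table). On plastic the cytokinesis kinesin gene Kif23 (fold 1.20), Cdc25b (1.08), the gene of a phosphatase that activates CDK1, and Tfdp1 (1.0), whose product pairs with E2Fs, were listed at their promoters in the authors' deposited table. At the promoter of Fbxw7, which encodes a ubiquitin ligase subunit that marks cyclin E for degradation, the folds were 1.02 on 32 kPa and 1.03 on plastic in the authors' deposited table. Distal regions assigned by nearest start site were listed for Lig1, Cenpe and Orc6 in both comparisons, for E2f6 and Trp53 on 32 kPa and for Ccnh and Incenp on plastic. They lay 1.17 kb (Trp53) to 62.3 kb (Ccnh) from that start site, with Cenpe at 56.8 kb. Which gene these regions act on was not tested.

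**Figure D2:**
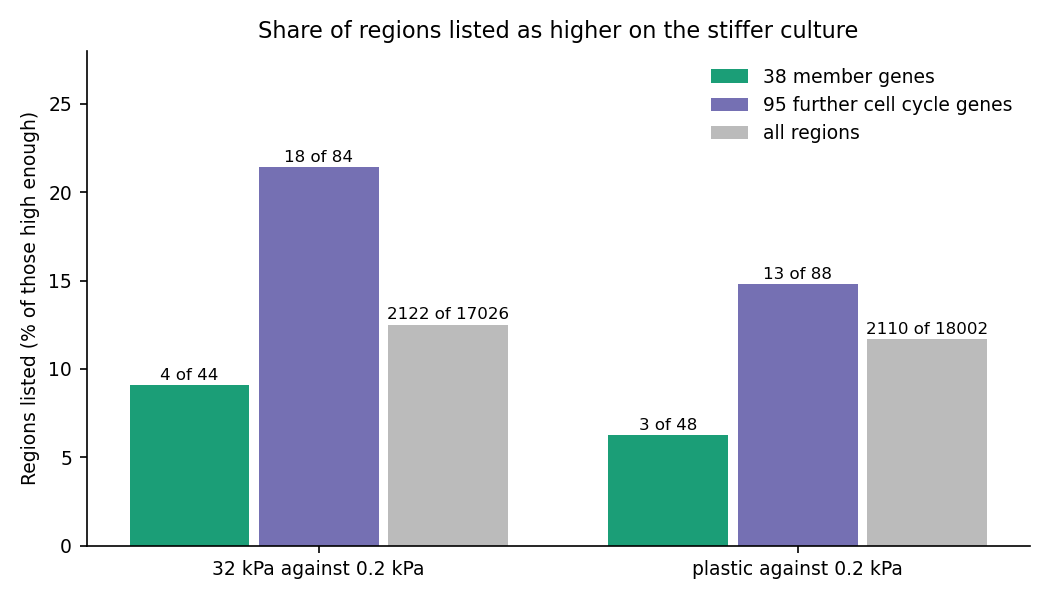
Bars give the percent of regions listed as higher on 32 kPa (left) or plastic (right) than on 0.2 kPa, among regions that reached the lowest listed level, with counts above the bars. The 38 genes of the set lie at 9.09% and 6.25%, the 95 further cell cycle genes at 21.4% and 14.8%, and all regions at 12.5% and 11.7%, and differences between these shares were not tested.

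Levels at promoters were compared between genes per kb of region, since a wider region collects more reads. An accessible region annotated as a promoter was present for 37 of the 38 genes. Ccna2, the cyclin A2 gene, had a region of 438 bases centred 884 bases inside the gene instead, at the annotated end of the neighbouring gene Bbs7, with 7.64 on plastic and 7.57 on 32 kPa. The strongest promoter of each gene had a median level of 7.45 in log2 normalised reads per kb, over both cultures, and the same measure over 10964 genes with a promoter region was 7.29. Of the 37 genes, 25 lay above that value.

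All 8 licensing and replication genes lay above the median of all genes, with a group median of 7.99, next to 7.98 for the 3 D cyclins. On the deposited level per region, not divided by length, 6 of the 8 were above the corresponding median of 5.45, with Mcm2 at 5.14 and Mcm6 at 5.34 below it. Mcm3, a subunit of the MCM helicase, was the highest promoter of the set on this scale (8.75 on plastic, 8.79 on 32 kPa), followed by the activating E2F genes E2f3 (8.73 and 8.78) and E2f1 (8.35 and 8.52) and by Cdc20 (8.46 and 8.39), an activator of the anaphase-promoting complex. Next came Mcm5, Ccne1, Mcm4 and Pcna, at 8.20, 8.17, 8.15 and 8.15 over both cultures. Cdc6, which loads the MCM helicase at origins, stood at 7.84, and Mcm6, Mcm2 and Mcm7 were the lowest of this group, at 7.46, 7.45 and 7.32.

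Among cyclins and kinases, Ccnb1, the gene of cyclin B1, had 7.90 on plastic and 8.05 on 32 kPa per kb, and Ccnb2 had 7.26 and 7.10. Cyclin E2 (Ccne2) was lower than its relative Ccne1, at 6.83 on plastic and 6.94 on 32 kPa. Cdk1, the mitotic kinase gene, had 7.55 and 7.58, Cdk4 had 7.30 and 7.48 and Cdk2, the partner of cyclin E, had 7.27 and 7.29. Of the mitotic kinase genes, Plk1 had 8.03 on plastic and 7.85 on 32 kPa, Aurka 7.89 and 7.72, and Aurkb 7.14 and 6.97.

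The lowest promoters of the whole set were those of Rbl1 (5.88 on plastic, 5.90 on 32 kPa), Cdk6 (6.91 and 6.28) and Bub1 (6.87 and 6.59). The retinoblastoma and E2F group had the widest range, 5.89 to 8.75 over both cultures. CDK inhibitors were close together, from 7.15 at Cdkn2c to 7.59 at Cdkn2b. Of the D cyclins, Ccnd2 and Ccnd3 stood at 8.06 and 7.98, above Ccnd1 at 7.43. Ccnd1 was annotated with a promoter region of only 105 bases, at 4.34 reads (log2) on plastic and 4.0 on 32 kPa. With 1 mean per culture, neighbours in this order cannot be tested against a spread between libraries. At 4 promoters the annotation named a transcript of another gene, namely Prkdc for Mcm4, Ap4m1 for Mcm7, Cstf1 for Aurka and Gm12610 for Cdkn2a, so the region lies near start sites of both genes. The Cdk6 promoter region, annotated to Cdk6, also lay 244 bases from a start site of Gm36470.

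**Figure D3:**
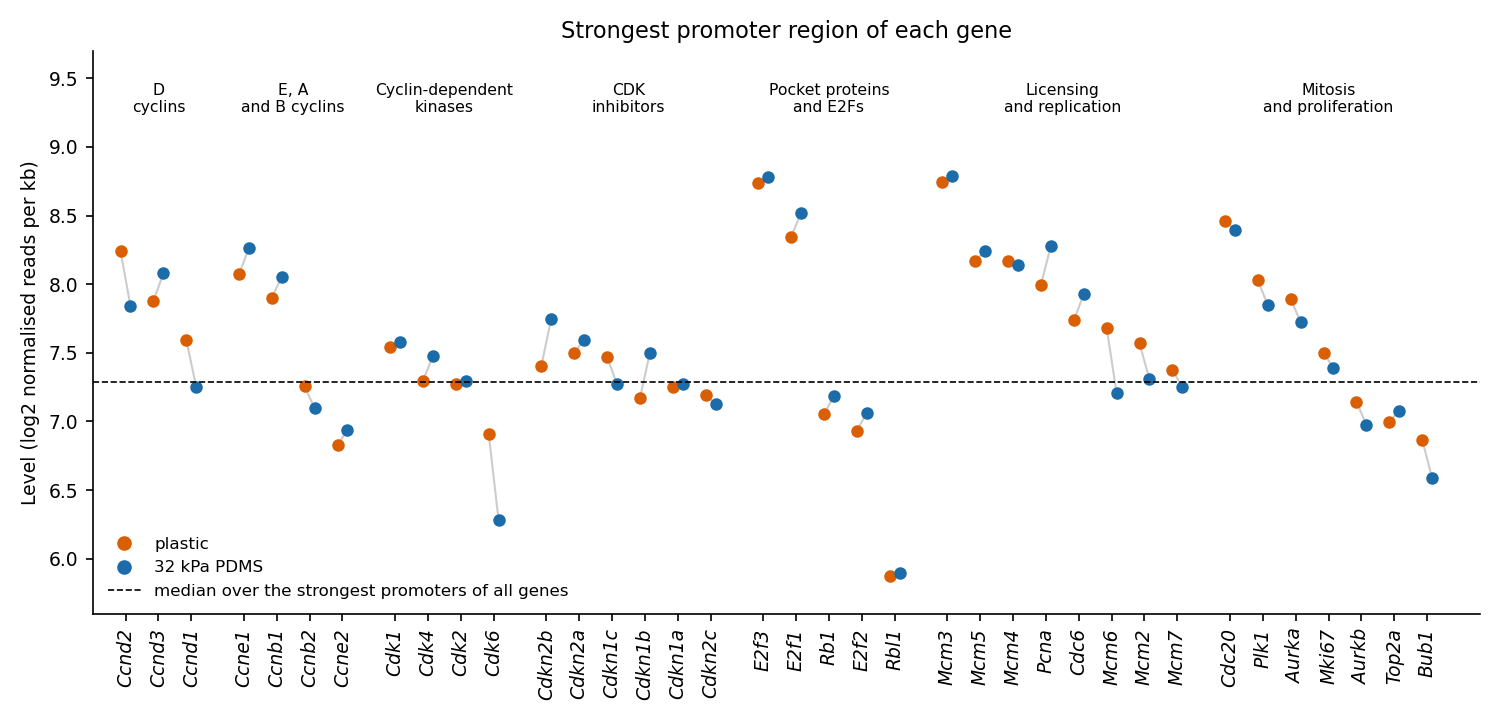
Level of the strongest promoter region of each of 37 genes, in log2 normalised reads per kb, on plastic and 32 kPa, ordered within groups of related function. Mcm3 and E2f3 lie highest and Rbl1 lowest, and the dashed line is the median of 7.29 over all genes.

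Distal regions were unevenly spread among the genes. Of the 64, 33 were intergenic and 26 intronic, with 2 in exons, 2 in 5' UTRs and 1 at a transcript end. Of all 106 regions of the set, 7 lay in an annotated repeat (6.6%, against 13.1% of all regions). All 7 were among the 64 distal regions. Promoters were 42 of the 106 regions, beside 12568 of all 64217, so these shares rest on different mixes of promoters and distal regions. Cdk6 had 14 regions, of which its promoter was 1, and they were weak, with a median mean level of 3.74. Ccne1 had 6 distal regions, the strongest 4.70 kb upstream of its start (chr7:38112042-38112342) in an MLT1K repeat, at 6.64 on plastic and 6.93 on 32 kPa. The strongest distal region of Ccnd3 lay 2.39 kb downstream of a start site (chr17:47595607-47596115), at 6.05 on plastic and 6.40 on 32 kPa.

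Several distal regions were annotated to a transcript of another gene, 12 in all, among them the Ccna2 region at the annotated end of Bbs7. The 6 distal regions of Cdkn2b, an inhibitor of CDK4 and CDK6, were in introns of the annotated gene Gm12610, 38.02 to 82.6 kb upstream, at levels of 2.52 to 4.66 on plastic and 3.47 to 4.46 on 32 kPa. The 3 of the imprinted inhibitor gene Cdkn1c were in an intron of Kcnq1, 52.3 to 53.2 kb downstream. These were given to the set by nearest start site, and which gene they act on was not tested. The distance limit fell among similar regions. The last inside it was a Cdk6 region 99.6 kb upstream (4.57 on plastic, 4.77 on 32 kPa) and the first outside it a Ccnd1 region 105.5 kb upstream (5.42 on plastic, 5.55 on 32 kPa), with 14 regions beyond the limit in all.

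**Figure D4:**
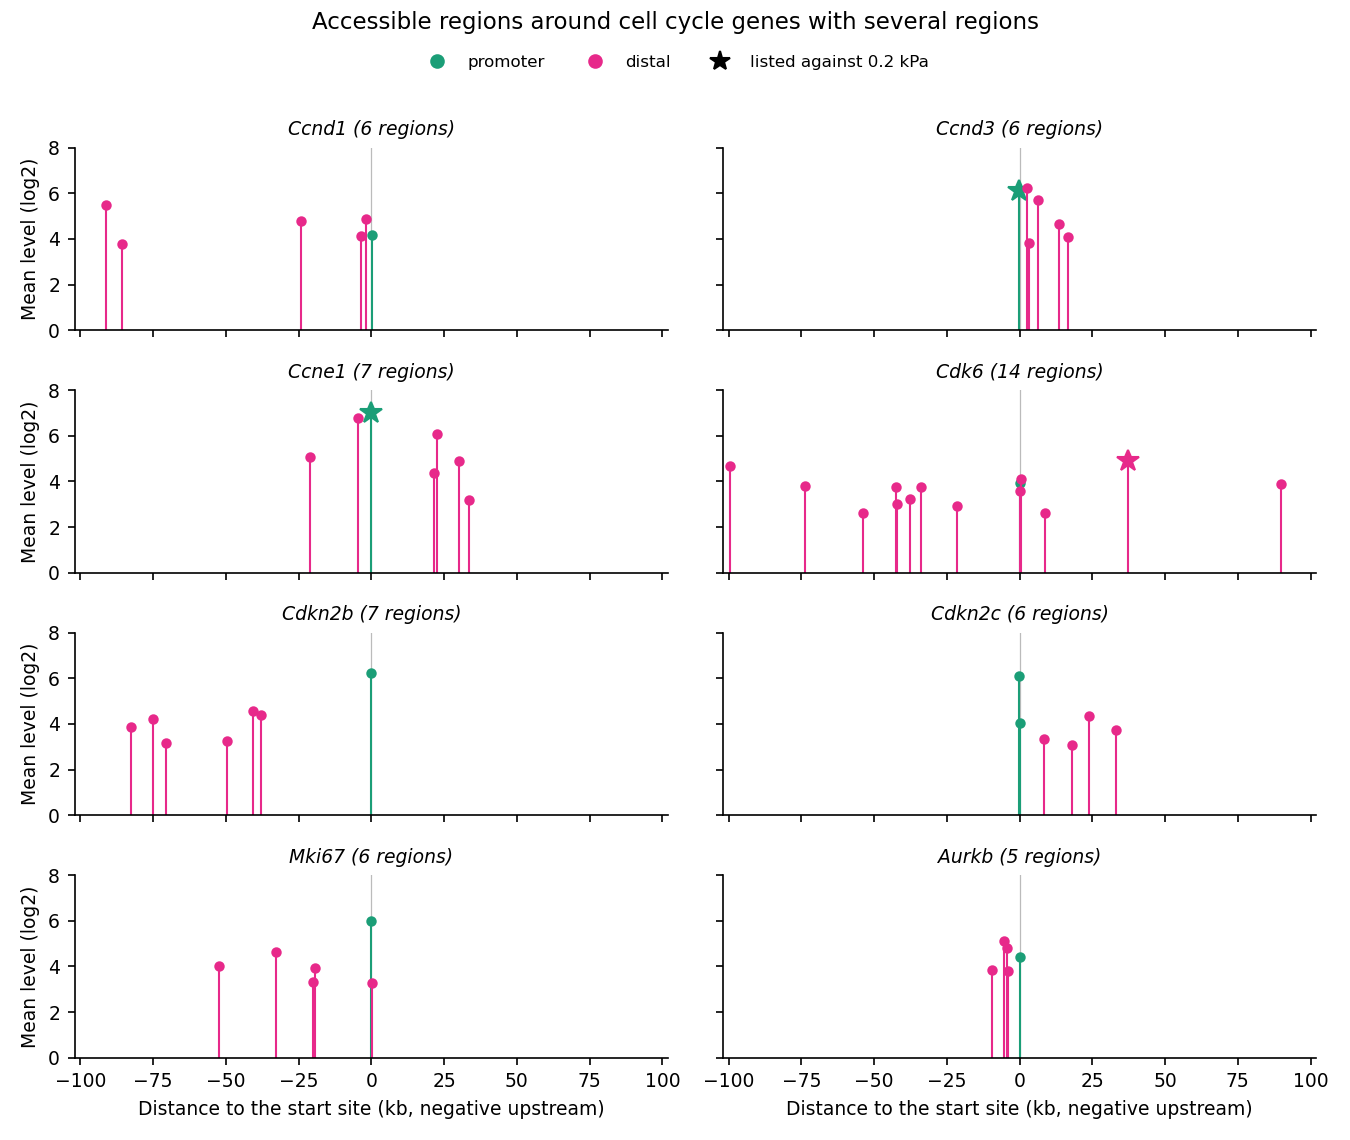
Position of accessible regions relative to the nearest annotated start site of each gene (kb, negative upstream), with the mean level over plastic and 32 kPa (log2 normalised reads per region) as height. Stars mark regions overlapping a region listed against 0.2 kPa, which are the Ccnd3 and Ccne1 promoters and the Cdk6 intron among these 8 genes.

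Plastic and 32 kPa did not separate at any region of the set by the authors' test. No region of the set had an FDR of at most 0.05, and neither did any of the 64217 regions (0%), since each had an FDR of 1. Below an unadjusted p of 0.05 there were 0 of the 106 regions and 370 of all regions (0.576%), in the authors' deposited table. The lowest p in the set was 0.156. DiffBind was the tool named for this comparison, and no other could be run on means.

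At promoters of the set the median difference, plastic minus 32 kPa, was -0.03 on the log2 scale (interquartile range -0.15 to 0.16), against -0.01 at all 12568 promoters. After subtraction of 0.05, the median of all regions, it was -0.08. Promoters higher on plastic numbered 17, and 25 were higher on 32 kPa. At distal regions the median was 0.04, against 0.06 at all distal regions within 100000 bases, with 37 higher on plastic and 27 on 32 kPa. The distal median was 0.14 among regions at or above a mean level of 4.45, and -0.01 after the same subtraction, so its direction depends on that subtraction.

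Differences at promoters are given here by group of related genes, and no difference between groups was tested. The 8 promoter regions of the 5 retinoblastoma and E2F genes, some of which share a gene, had lower values on plastic, with differences of -0.67 to -0.01 and no p below 0.302 in the authors' deposited table. Over all 12568 promoters, 6370 were lower on plastic and 6009 higher. Of 7 promoters of mitotic and proliferation genes, 6 had higher values on plastic, up to 0.28 at Bub1 in the authors' deposited table. Top2a was at -0.09. This group leaves out the cyclin and kinase genes counted with mitosis above. Of those, Ccnb2 was at 0.16, Cdk1 at -0.03 and Ccnb1 at -0.15, and Ccna2 had no promoter region. When the median of all regions was subtracted, the mitotic count stayed at 6. The retinoblastoma and E2F count could not change, since all 8 were already lower and the subtracted median is positive. Over all promoters, 7337 were then lower on plastic and 5062 higher. Replication promoters were split, 5 higher on plastic and 4 on 32 kPa, and 4 and 5 after that subtraction. The proliferation marker gene Mki67 had 6.05 on plastic and 5.94 on 32 kPa at its promoter (p = 0.732 in the authors' deposited table), and Top2a, which encodes a topoisomerase of dividing cells, had 5.45 and 5.53 (p = 0.809 in the authors' deposited table).

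The promoters furthest above zero were those of Cdk6 (4.21 on plastic, 3.58 on 32 kPa, p = 0.315), Mcm6 (5.56 and 5.09, p = 0.215) and Ccnd2 (5.94 and 5.54) in the authors' deposited table. Furthest below zero were a weak Rb1 promoter region (3.36 on plastic, 4.03 on 32 kPa, p = 0.302) and the promoters of the inhibitor genes Cdkn2b (6.04 and 6.38, p = 0.24) and Cdkn1b (6.23 and 6.56, p = 0.227) in the authors' deposited table. The other inhibitor promoters, Cdkn1a (5.20 and 5.22), a target of p53, Cdkn1c (5.62 and 5.42), Cdkn2a (5.84 and 5.93) and the main one of Cdkn2c (6.12 and 6.05), differed by 0.20 or less between the cultures in the authors' deposited table. A second, weaker Cdkn2c promoter region had 3.85 on plastic and 4.19 on 32 kPa (p = 0.549 in the authors' deposited table).

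Differences of 1 or more on the log2 scale occurred only at weak distal regions of the set. There were 6, of which 3 were near Cdk6 and 1 each near Ccne1, Cdkn2b and Cdkn2c. A region 33.5 kb downstream of Ccne1 had 3.67 on plastic and 2.51 on 32 kPa (difference 1.16, p = 0.16 in the authors' deposited table). One 37.5 kb upstream of Cdk6 had 2.58 on plastic and 3.71 on 32 kPa (difference -1.12, p = 0.156 in the authors' deposited table). Of the others, Cdk6 regions 42.2 and 53.8 kb upstream were higher on plastic, with 3.47 and 3.07 there and 2.31 and 1.92 on 32 kPa. A Cdkn2b region 70.8 kb upstream had 2.52 on plastic and 3.59 on 32 kPa, and a Cdkn2c region 17.9 kb downstream had 2.46 on plastic and 3.49 on 32 kPa. All 6 lay below a mean level of 4.45, the lowest of any listed region, where they made up 12.5% of the set's 48 regions, beside 7.89% of all regions at such levels. None of the 58 regions at or above it differed by 1 or more, beside 0.154% of all regions there.

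**Figure D5:**
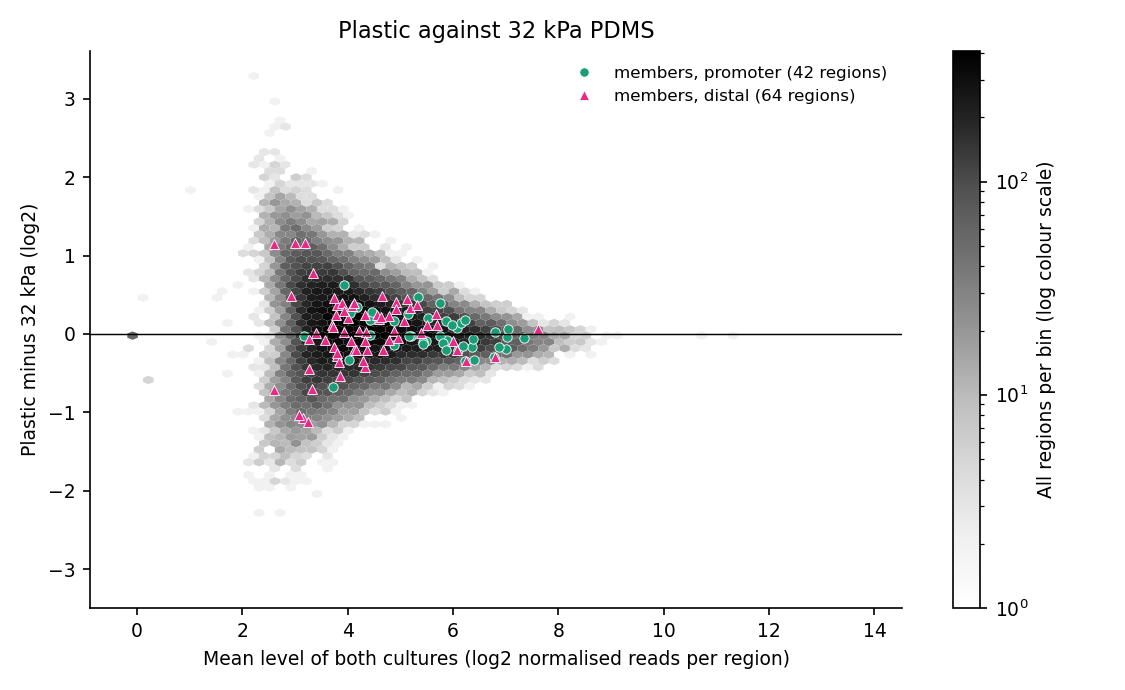
Difference between plastic and 32 kPa (log2, positive where plastic is higher) against the mean level of both cultures (log2 normalised reads per region), with all 64217 regions in grey and the set in colour. Regions of the set lie within the grey cloud, and those at 1 or beyond are distal and of low level.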

How the data were processed

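Omni-ATAC-seq libraries of mouse lung fibroblasts, 2 per culture, were grouped by the culture in their labels. BWA, Picard, MACS2, DiffBind and the build mm10 are named, with no order, per the submitters' processing notes, while versions, scaling, transposase shift and peak merging are not given in the sources used here. From the column names and values, the deposited levels were read as log2 means of normalised reads per region. The fold was read as the difference of the log2 means of both cultures. The headers do not state these units. Each p-value and FDR is the authors' own. Lists against 0.2 kPa hold folds of at least 1 and an FDR of at most 0.05. No values per library were used, so depth is unknown and no interval can be given.

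The tables against 0.2 kPa call their sides Control and Treat. At 643 intervals Control equalled the 32 kPa level of the third table, and at 653 it lay 0.01 to 0.02 above its plastic level, so Control was read as the stiffer culture. Starts were made 1-based, and 1 repeated header row was dropped. Gene, distance and annotation were used as deposited (promoter: promoter-TSS). The listed share was taken over regions of the third table at or above the lowest listed level, by an overlap of at least 1 bp with a listed region. Levels on the absent culture came from regions sharing at least 50% of both lengths. No test was made beyond the authors' own. Matching and motif search were checked on simulated data with known answers.

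Members and gene lists were chosen with earlier results of these data known. Named in full were all listed regions of the set, the strongest promoter of each gene for the order of levels, and the 3 promoters and the extreme distal regions with the largest differences each way. Genes of the wider list were named as examples after their values were seen. Python 3.11.15, pandas 2.3.3, numpy 2.4.6 and matplotlib 3.10.9 were used.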

Additional observations from a re-analysis of the deposited data

How the results depend on the processing

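Of the regions listed for 32 kPa, 3 remained within 10000 bases and 3 at an FDR of at most 0.01, against 4 in the report. For plastic the count of 3 became 1 within 10000 bases, because the 2 introns lie farther out, and 1 at an FDR of at most 0.01. It was 4 with no limit on distance. The count of 0 for plastic against 32 kPa could not change with the window, FDR limit or minimum level. No region of the whole comparison passed any of the FDR limits tried. The median difference of member promoters, plastic minus 32 kPa, was -0.045 at or above a mean level of 4.45 and -0.08 after subtraction of the median of all regions, against -0.03. That of distal regions was 0.14 above that level, -0.01 after subtraction, 0.07 within 10000 bases and 0.02 with no limit, against 0.04, and the cause was not tested. At 90% of both lengths 6 of 7 levels on the absent culture were matched. No paired analysis was possible because the tables hold 1 mean per culture, and for the same reason no replicate could be left out. Depth per library is unknown, so no limit from it can be given.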

Other observations

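Mki67, the gene of the proliferation marker Ki-67, had a listed region outside the distance limit of the report. It is intergenic and lies 144.65 kb upstream of the gene (chr7:135860897-135861161). Its level was 5.21 on plastic, against 3.90 on 0.2 kPa, with a fold of 1.31 and an FDR of 0.0257 in the authors' deposited table. On 32 kPa a wider region over it (chr7:135860897-135861222) had 5.05 and was not listed. That was 1.15 above the 0.2 kPa level of the shorter listed interval. Plastic had 5.3 on the wider region, so the 1.15 compares unlike intervals. Around Cdkn2b, 8 further regions lay 111.2 to 175.1 kb upstream, the strongest at 117.1 kb with 6.03 on plastic and 5.76 on 32 kPa (p = 0.42 in the authors' deposited table), and none was listed.

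Other RMER6C elements than that in the Rb1 intron were also accessible. Of 88 regions in such elements, the Rb1 intron included, 10 were high enough for the 32 kPa list and 2 were in it, beside 12.5% of all regions that high. For the plastic list 15 were high enough and 4 were in it, beside 11.7% of all such regions. The Rb1 intron, which prompted this look, is among those listed in both comparisons. These counts are small and were not tested.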
